A study of Mus musculus with 10 samples.

Results

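Large clusters of DNase I hypersensitive (DHS) sites were described in 3T3-L1, a line of mouse preadipocytes, 4 h after differentiation was started. DHS sites lying 12.5 kb or less apart on a chromosome were joined, and groups of 10 or more sites were kept, apart from 2 groups of 184 sites in all that overlapped chromosome 10 between 116.0 and 118.1 Mb on the mm9 build. This left 680 clusters with 9781 sites, 7.58% of the 129028 sites in the list. Positions alone chose the members, and no footprint value entered the choice. The cells had been kept in medium with 10% calf serum. For differentiation they received 10% FCS (fetal calf serum) together with insulin at 1 µg/mL, the phosphodiesterase inhibitor IBMX at 0.5 mM and the glucocorticoid dexamethasone at 1 µM. The 2 DNase samples are runs of 1 library, pooled by the authors with an earlier run of it, so the lists hold 1 observation of each site and no replicates. The 8 RNA samples of the series were not used here.

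Many regulatory regions lie in groups. A super-enhancer is such a group, found by joining enhancers that lie close together and keeping the groups with the most signal of factors such as Mediator, and super-enhancers are known for lying near genes that set a cell's identity. In differentiating preadipocytes the glucocorticoid receptor, cyclic AMP signalling and C/EBP factors act within hours, and many factors are known to bind the same open sites, called hotspots. A footprint is a short stretch inside a DHS site that DNase I cut little, read as DNA covered by protein. The DHS list gives no strength of a site and the clusters were ranked by no signal, so whether any of them is a super-enhancer could not be checked, and they are called clusters throughout. Read depth is unknown. The lists are on mm9, and no mm9 sequence or gene positions were used here, so clusters are given by position without gene names.

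The clusters had a median length of 51.0 kb (interquartile range 39.6 to 65.3 kb), and ran from 10.9 to 202.7 kb. Their median number of sites was 12, and 375 of the 680 (55.1%) had 10 to 12 sites. There were 86 clusters with 20 or more sites, 11 with 40 or more, and 16 that reached 100 kb. Open sites filled a median of 17.2% of a cluster's length, from 5.34% to 71.2%. Just outside the limit were 287 clusters of 9 sites with a median length of 38.9 kb, and just inside it 167 clusters of 10 sites with a median of 43.6 kb. The number of clusters fell steadily across that limit, with 711 of 7 sites, 442 of 8, 129 of 11 and 80 of 12, so no gap in the data set large clusters apart from smaller ones.

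**Figure D1:**
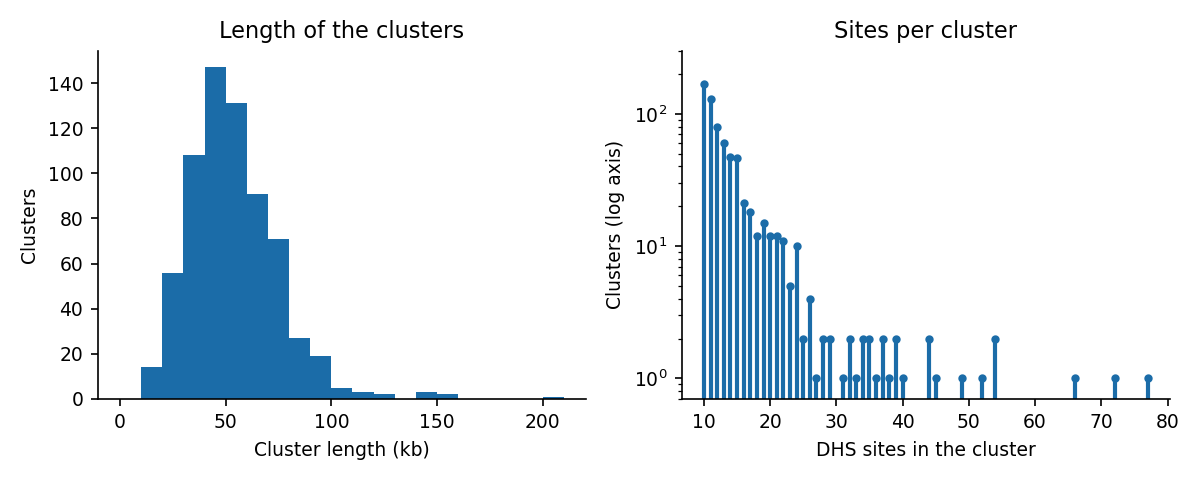
Left, number of clusters by length in kb in bins of 10 kb. Right, number of clusters (log axis) by the number of DHS sites they hold. Most of the 680 clusters were 20 to 80 kb long with 10 to 15 sites, and the largest held 77 sites.

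Neighbouring sites of a cluster lay a median of 1937 bp apart (interquartile range 530 to 5183 bp, 9101 distances), and 36.0% were under 1000 bp. Beyond a cluster's ends the next site was a median of 25622 bp away. Cluster sites were somewhat wider than the others, with a median of 592 bp, against 527 bp for the 119247 sites outside. Length followed the number of sites loosely, with a Spearman rho of 0.43 across the 680 clusters. The longest cluster, on chromosome 6 from 130630610 to 130833341, held 49 sites in 202.7 kb. The cluster with the most sites, also on chromosome 6, from 85615847 to 85760859, held 77 in 145.0 kb.

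Footprints were present in more of the cluster sites than of other sites. Of the 9781 cluster sites, 5823 (59.5%, 95% Wilson interval 58.6 to 60.5%) held at least 1 footprint, against 52809 of the others (44.3%, interval 44.0 to 44.6%) and 45.4% of all sites. These intervals cover counting error only and treat sites as independent, although neighbours are not. Wider sites hold more footprints, so each site was also given the share and the number expected at its width, from the mean in 50 width classes over all sites. At their widths, cluster sites were predicted to hold a footprint in 52.2% of cases and the other sites in 44.9%. The observed share was thus 1.14 times the prediction in clusters and 0.987 times outside. The share was higher in clusters on 20 of 20 chromosomes, at 43.8% to 72.6% in clusters, against 27.9% to 59.0% outside. Relative to width, it was higher in clusters on 19 of 20, the exception being chromosome 19.

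The number of footprints did not follow the same pattern. Cluster sites held 31664 footprints, 3.24 ± 6.55 per site (SD over sites), and the other sites 297412, or 2.49 ± 4.90 per site. At the widths of the cluster sites, 3.32 per site were predicted. The observed number was 0.975 times the prediction (0.964 to 0.986, exact Poisson, counting error only), and 1.003 times outside. This interval treats single footprints as independent. The SD over sites was larger than the mean, a wider spread than Poisson counts have. The interval is therefore too narrow to settle whether the ratio differed from 1. Over the other processing settings tried, it ran from 0.712 to 1.07, so the number of footprints lay on either side of the prediction depending on the setting. The 1.07 came from leaving out clusters already seen to hold few footprints, while joining at 20000 bp gave 1.06. On 12 of 20 chromosomes this ratio was lower in clusters than outside. Cluster sites with a footprint had a median of 3, against 4 outside. Sites with 1 or 2 footprints made up 26.9% of cluster sites and 16.6% of other sites. Footprints were thus spread over more sites in clusters, with fewer per footprinted site.

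Sites with 10 or more footprints, the closest measure in these lists to a hotspot of many bound factors, were more common in clusters than over all sites, but less common than site width predicted. They were 921 of the 9781 cluster sites (9.42%, interval 8.85 to 10.0%), against 7.75% of the others and 7.88% of all sites. At the widths of the cluster sites 11.1% was predicted, and 7.62% at those of the others. The share was not particular to large clusters, since it was 9.39% in clusters of 5 to 9 sites (9.08% predicted). In clusters of 20 or more sites it was 7.48% (13.4% predicted), and in those of 10 to 19 sites 10.1% (10.3% predicted). These 921 sites carried 52.0% of the clusters' footprints, and the 9247 such sites outside carried 48.8% of the rest. They were unevenly dealt out among clusters. No such site was found in 357 clusters (52.5%), 103 held 1, 79 held 2, and 141 (20.7%) held 3 or more.

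The share of footprinted sites grew with the number of sites in a group up to a point. It was 59.8% in clusters of 20 or more sites, 59.4% in those of 10 to 19, 51.7% in those of 5 to 9, 43.4% in groups of 2 to 4 and 38.4% among single sites. The matching predictions from width were 52.3%, 52.2%, 49.6%, 44.7% and 40.5%. The ratio of footprints to the prediction was highest in clusters of 10 to 19 sites, at 1.05, against 1.04 in those of 5 to 9 sites and 0.984 among single sites. In clusters of 20 or more sites it was 0.795, although the share of footprinted sites was as high there as in smaller clusters.

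Clusters differed widely from each other. The share of a cluster's sites with a footprint had a median of 62.8% (interquartile range 36.4 to 84.6%), while the share predicted from width had a median of 53.7% (40.2 to 65.4%). The prediction is a mean without counting spread, and with about 12 sites a cluster part of the wider observed range is counting spread, whose size was not tested. All sites were footprinted in 68 clusters (10.0%), and none was in 46 (6.76%). A share of 90% or more was found in 153 clusters and one under 10% in 62. Across clusters the share rose with the median width of the sites, at a Spearman rho of 0.79 (n = 680), and was nearly unrelated to the median gap, at 0.06. The number of footprints relative to width was above 1.5 in 94 clusters and below 0.5 in 243.

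**Figure D2:**
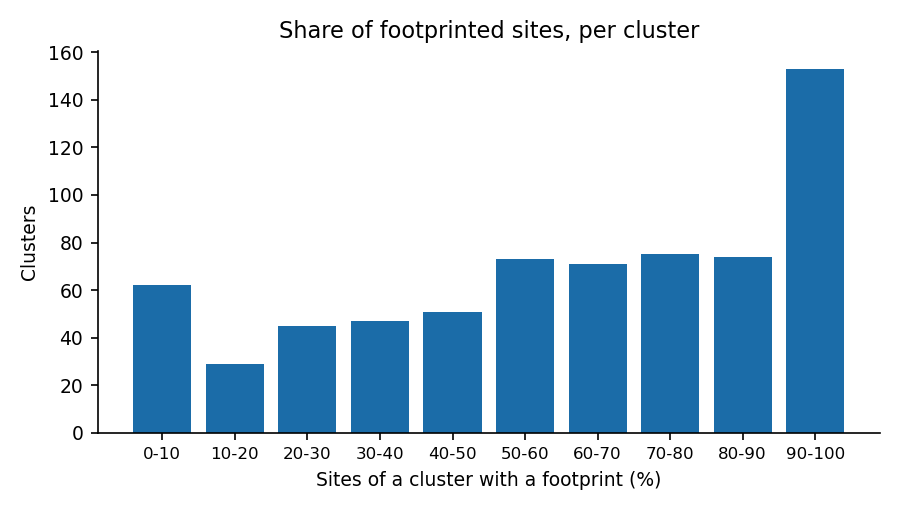
Number of clusters by the share of their sites that hold a footprint (%), in bins of 10 percentage points. The shares reach both ends, with 62 clusters under 10% and 153 at 90% or more.

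Neighbouring sites of a cluster tended to be alike. Where a site's left neighbour held a footprint, 72.6% of sites held one (5407 sites, 58.5% predicted from their width). Where the left neighbour held none, 40.1% did (3694 sites, 43.3% predicted). The number of footprints in neighbours had a Spearman rho of 0.45 over 9101 pairs, and their widths one of 0.18. After division by the number predicted from width, rho was 0.35. The pairs share a library, a cluster and, where close, local sequence. Clusters of 5 to 9 sites showed the same kind of likeness, with 72.5% of sites footprinted after a footprinted neighbour and 29.3% after one without, so it is not particular to large clusters.

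Tightly packed clusters held few footprints for their width. In the 127 clusters with a median gap under 1000 bp, 2441 sites carried 0.752 times the footprints predicted from width, and in the 553 clusters with wider gaps, 7340 sites carried 1.07 times. Single clusters differed, with a ratio above 1 in 22 of the 127 and in 247 of the 553. The share of sites with a footprint differed little, at 59.3% in the packed clusters and 59.6% in the wider spaced ones. Packed clusters had a median length of 33.7 kb and 15 sites, and the wider spaced ones one of 53.5 kb and 12 sites. Over 5 classes of median gap, from under 500 bp to 5000 bp or more, the pooled ratio was 0.794, 0.718, 0.955, 1.16 and 1.18. The median ratio of single clusters was 0.391, 0.408, 0.691, 1.07 and 0.899 in the same order. Leaving out the packed clusters moved the clusters' pooled ratio from 0.975 to 1.07, with a limit of 1000 bp chosen after the data were seen.

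**Figure D3:**
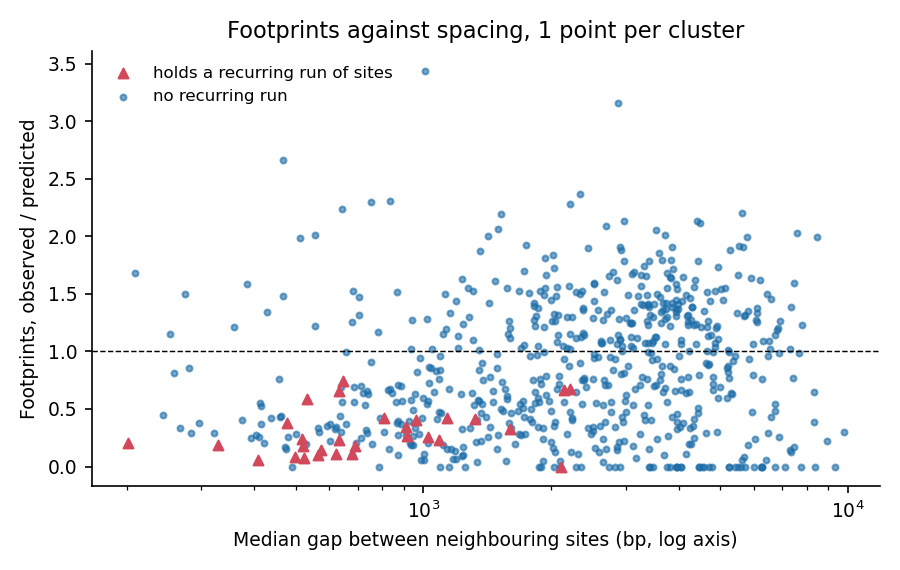
Footprints of each cluster divided by the number predicted from site width, against the median gap between its sites in bp (log axis). Triangles mark the 29 clusters that hold a run of sites recurring elsewhere, all of them below 1, and the dashed line marks a ratio of 1.

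Some clusters, packed and wider spaced, contained an arrangement of sites that recurred. A search for runs of 3 neighbouring sites whose 3 widths and 2 gaps recurred elsewhere within 5 bp found 59 pairs of runs, and in 59 of 59 both runs lay on the same chromosome, a median of 111.3 kb apart. Such runs took in 157 cluster sites in 29 clusters (1.61% of cluster sites), against 57 sites outside (0.0478%). With a tolerance of 20 bp there were 100 pairs, 92 of them on 1 chromosome, and 2.70% of cluster sites were involved, against 0.111% outside. A run needed 3 sites with gaps of 12.5 kb or less, which the rule for clusters ensures. The 28398 single sites and the groups of 2 outside could hold no run. The shares inside and outside are therefore not on equal terms. The 157 cluster sites were footprinted in 33.8% of cases, where 49.0% was predicted, and held 0.292 times the predicted footprints. Of the 29 clusters, 21 had a median gap under 1000 bp. Without the 29 clusters the share of footprinted sites was 60.7%. The pooled ratio of footprints to the prediction was 1.01 in the other 651, against 0.975 with the 29 included. With the 29 included and the clusters left out on chromosome 10 kept as well, it was 1.02. The pooled shortfall thus depended on which clusters were included, and whether recurring runs account for it was not tested. The 127 clusters with a median gap under 1000 bp had a ratio of 0.752. Their ratio without the 21 was not computed.

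The clearest case was a pair of clusters on chromosome 14, from 26833275 to 26887048 and from 26972889 to 27027220, chosen after their values were seen. Neither was packed, with median gaps of 2217 and 2146.5 bp. Their sites 1 to 9 had the widths 695, 738, 601, 734, 601, 931, 1790, 678 and 1887 bp in both clusters. The footprints of these 9 sites numbered 1, 4, 1, 3, 4, 3, 2, 4 and 19 in each cluster. All 41 footprints of the first cluster's 9 sites recurred in the second within 5 bp of the same place, with the same width and with scores equal to within 1e-06. The 9 sites of both clusters thus carry 1 set of values at 2 positions. Of all 104 pairs of sites matched by such runs in the same order, 95 had exactly equal widths. The search itself required widths within 5 bp. In 70 pairs neither site held a footprint. Of the 86 footprints in the site listed first, 73 (84.9%) recurred in its partner at the same place and width, 57 of them with an equal score. Sequence identity of the paired stretches and the placing of reads on them were not tested.

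Another case lay within a single cluster. On chromosome 11 from 27746770 to 27819169, 21 sites with a median gap of 2105.5 bp held 0 footprints, where 39.9 were predicted. Sites 1 to 10 had widths of 356, 251, 1321, 868, 288, 425, 335, 444, 631 and 524 bp, and sites 12 to 21 had widths of 356, 251, 1321, 865, 288, 425, 335, 444, 631 and 524 bp. This cluster had the second largest predicted number among the 46 clusters with no footprint. The largest, with 55.0 predicted, was a cluster of 22 sites on chromosome 5 from 143270566 to 143311910. The next in predicted number was a cluster of 18 sites on chromosome 14 from 53914740 to 53959762, with 33.2 predicted and 0 found. These 3 runs of open sites held no called footprint at all.

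Evenness was measured by the Gini coefficient of footprint numbers among a cluster's sites, which is 0 where all sites hold the same number and nears 1 where a single site holds them all. Over the 634 clusters with a footprint its median was 0.59 (interquartile range 0.49 to 0.70), against 0.55 for the numbers predicted from width and 0.24 for the widths themselves. The predicted numbers carry no counting spread, which raises the coefficient of observed numbers, most where footprints are few, so the difference from the prediction is not read as unevenness beyond width. The site with the most footprints held a median of 29.6% of its cluster's total, and 50% or more in 114 clusters. Expressed as the number of equally loaded sites that would give the same spread, the median cluster had 5.31, or 0.41 of its sites. In clusters of 5 to 9 sites the Gini coefficient had a median of 0.56 observed and 0.48 predicted.

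A cluster with fewer footprints than sites cannot be even, and the Gini coefficient fell as footprints rose (Spearman rho -0.65 across 634 clusters). Among the 234 clusters with 50 or more footprints the median was 0.49, beside 0.51 for the numbers predicted from width. Their busiest site held a median of 25% of the footprints.

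The most even of these was on chromosome 4 from 144804123 to 144886012. Its 14 sites held 9, 7, 6, 7, 5, 0, 5, 7, 9, 6, 6, 13, 5 and 7 footprints, a Gini coefficient of 0.21. A cluster on chromosome 17 from 46381359 to 46436062 followed with 0.25, its 10 sites holding 6, 5, 11, 9, 7, 15, 13, 4, 4 and 7. The next was on chromosome 7 from 19881024 to 19931151 with 0.27, where 10 sites held between 0 and 10. All 3 were widely spaced, with median gaps of 4744, 4149 and 4196 bp, and Gini coefficients of site width of 0.13, 0.11 and 0.20, against a median of 0.24 over all clusters with a footprint.

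The least even were a pair on chromosome 13, from 13461126 to 13548208 with a coefficient of 0.87, and from 12716211 to 12798853 with 0.85. In the cluster that starts at 13461126, 1 of 34 sites held 47 of the 98 footprints, and in the other, 1 of 29 sites held 44 of 93. Each of these sites was followed by a site with 14 footprints. Both clusters hold a recurring run of 3 sites. Its widths are 1109, 802 and 385 bp in the cluster from 13461126, and 1109, 801 and 385 bp in the other. The 2 clusters are thus not shown to be separate cases. Both had short median gaps, of 645 and 632 bp. The next least even cluster, on chromosome 5 from 15150123 to 15216799, had 61 footprints in each of 2 adjoining wide sites and 32 in its other 17, a coefficient of 0.80.

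**Figure D4:**
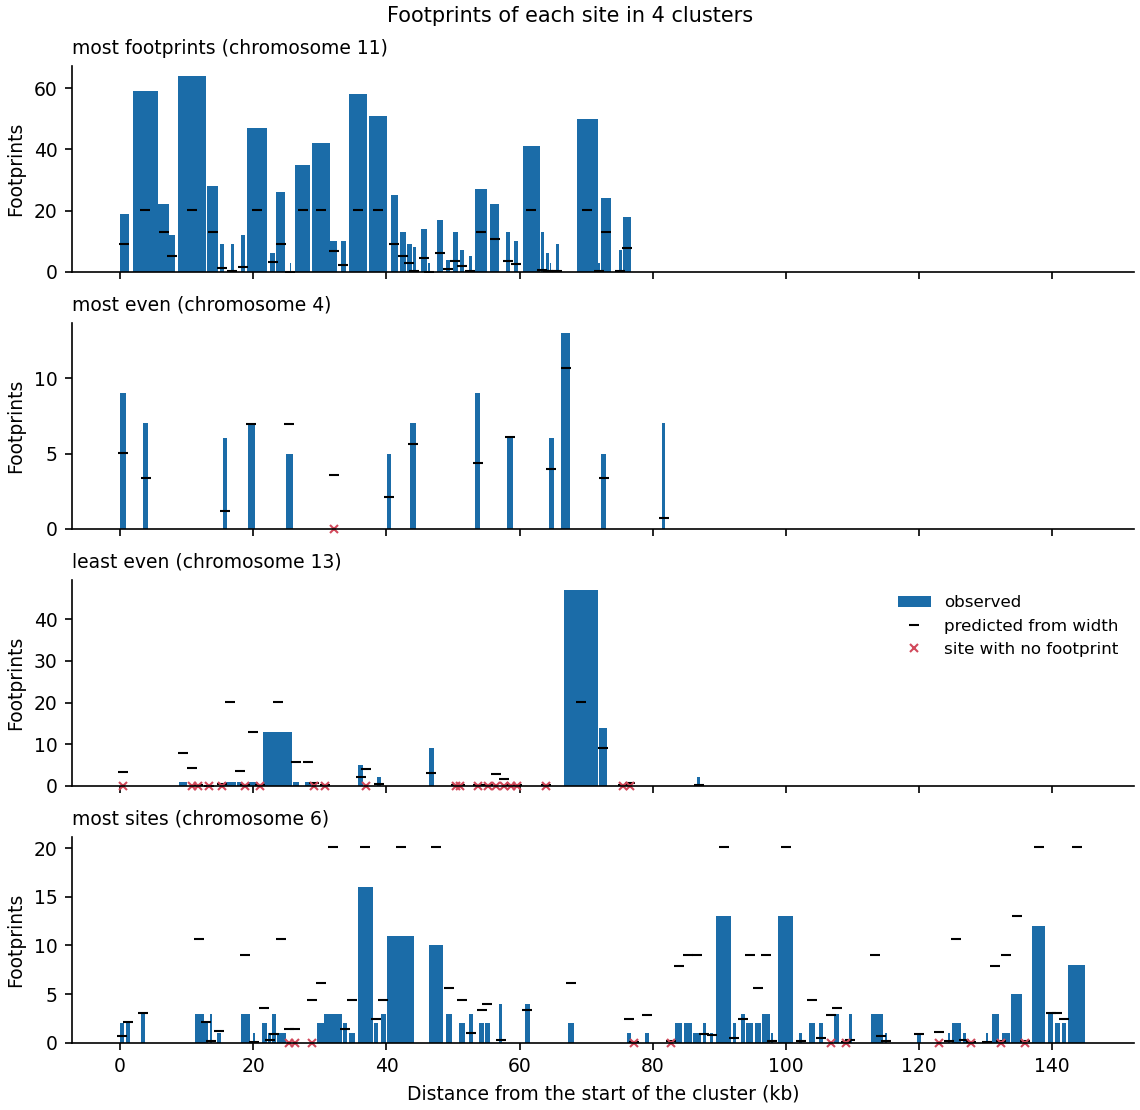
Footprints of each site against distance from the cluster's start in kb, in the clusters with the most footprints, the most and least even spread, and the most sites. Bars are as wide as the site, ticks give the number predicted from width and crosses mark sites with 0. All 44 sites of the first cluster were footprinted, whereas 1 site of the least even cluster held 47 of 98.

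Central and edge sites were compared by splitting each cluster's sites into 3 equal parts by rank. The 3301 sites of the middle part were set against the 1360 sites at the 2 ends. A footprint was present in 59.0% of central sites (95% Wilson interval 57.4 to 60.7%) and 61.1% of edge sites (58.5 to 63.7%). The difference, central minus edge, was -2.06 percentage points, with an interval of -5.12 to 1.04 from the Wilson bounds, so it did not exceed counting error. Within single clusters the central share was higher in 195, lower in 256 and equal in 229. An edge share comes from 2 sites and a central share from more, so all edge sites are footprinted more easily than all central ones. These counts therefore give no direction. With every cluster given the same weight, a setting added after the data were seen, the shares were 58.2% in central and 61.1% in edge sites. That difference was -2.90 points, with an interval of -5.44 to -0.355 from the spread over clusters, so whether it passed its error depended on the weighting. Joining sites at 5000 or 20000 bp, or keeping clusters from 5 sites, put the central share above the edge share, by 0.392 to 1.03 points. The central share was the higher one on 5 of 20 chromosomes.

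In number of footprints relative to width, pooled over clusters, edge sites stood above central ones. Central sites held 3.16 ± 6.26 footprints (SD over sites) at a median width of 589 bp, 0.948 times the prediction. Edge sites held 3.26 ± 5.41 at 581 bp, 1.11 times the prediction. The ratio was lower for central sites on 17 of 20 chromosomes, the exceptions being 5, 8 and 16. Within single clusters the mean number, not set against width, was higher in central sites in 310, lower in 283 and equal in 87. Counted inward from the ends, the ratio was 1.11, 1.09, 0.982, 0.969 and, for the position 5 or deeper, 0.907. The nearest sites outside the clusters, 1239 in all, had a ratio of 1.18 and were footprinted in 61.2% of cases, close to the edge sites although 12.5 kb or more away. Sites near a cluster's border thus did not stand out from those just beyond it.

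**Figure D5:**
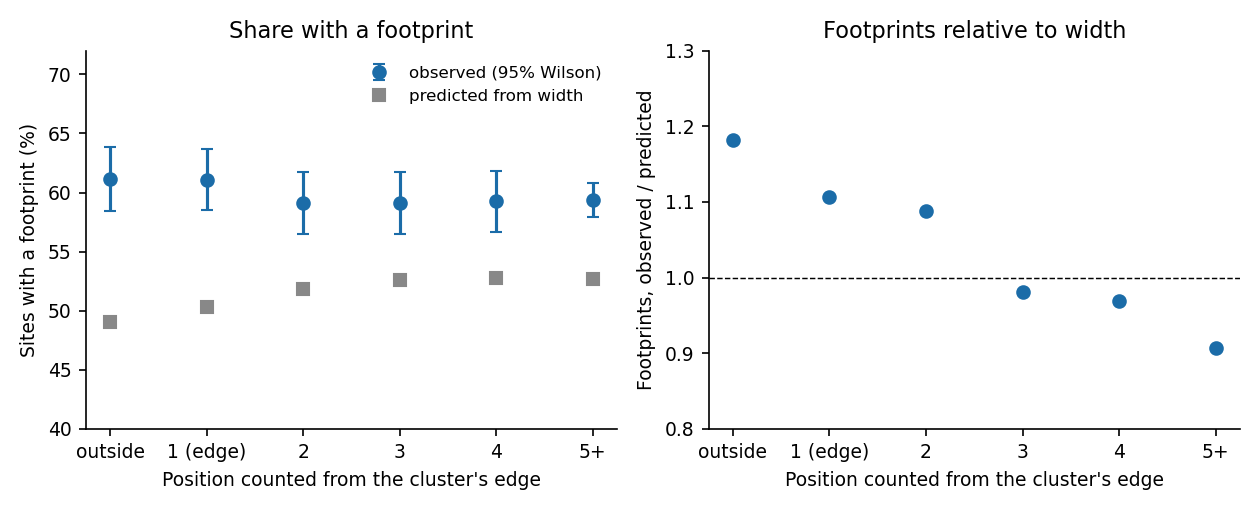
Left, share of sites with a footprint (%, bars are 95% Wilson intervals) and the share predicted from width, right, footprints observed over predicted, by position from a cluster's edge, "outside" being the nearest site beyond it. The share stays near 60%, while the ratio is 1.18 outside and 0.907 at position 5 or deeper.

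The difference between centre and edge varied with spacing, but not steadily. In clusters with a median gap under 1000 bp the ratio was 0.709 in central sites and 0.915 in edge sites. With gaps of 1000 bp or more it was 1.05 in central and 1.15 in edge sites. In finer classes of median gap, central and edge sites had ratios of 0.683 and 0.985 under 500 bp. From 500 to 1000 bp they were 0.729 and 0.874, and from 1000 to 2500 bp 0.897 and 1.12. In the 254 clusters with median gaps of 2500 to 5000 bp the ratio was 1.19 in both. At 5000 bp or more it was 1.12 in central and 1.14 in edge sites. Clusters with many sites supply more of the deep positions. The median distance to the nearest site was 411 bp in clusters of 20 or more sites and 1231 bp in those of 10 to 19, so position, size and spacing cannot be told apart over all clusters. In clusters of 5 to 9 sites the ratio was 1.02 for central and 1.09 for edge sites, so the direction is not particular to large clusters. The site with the most footprints was at an end in 110 of 634 clusters (17.4%), where ends made up an average 15.5% of positions. Ties went to the first site along the chromosome, so the higher share is not read as a preference for ends.

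The clusters with the most footprints had footprints in nearly every site, and most of them had wide sites. On chromosome 11 from 3023242 to 3099924, all 44 sites held 3 to 64 footprints, open sites filled 71.2% of the length, and 29 sites held 10 or more. On chromosome 2 from 77707577 to 77865404, 72 sites held 1 to 52 each. Their median width of 633.5 bp was near the median of 601 bp over clusters. This cluster's Gini coefficient of 0.40 was well under the 0.63 predicted from width. On chromosome 10 from 106642299 to 106694125, 24 sites with a median width of 1454 bp held 2 to 36. The fifth by footprints was on chromosome 1 from 87470420 to 87551123, where 22 sites held 301. There 3 sites of over 5000 bp held 65, 49 and 44 of them, and 3 narrow sites held 0.

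A single very wide site could carry a cluster. On chromosome 19 from 5771084 to 5850696, 21 sites held 531 footprints, 3.44 times the number predicted, the highest ratio of any cluster. One of its sites, from 5836635 to 5849786, held 259 (48.8%), and the ratio of the other 20 sites was 2.03. The prediction is the same, 20.1 footprints, for all sites in the widest class, from 1793 bp, and so is too low for such a site. The second highest ratio, 3.16, belonged to a cluster of 12 sites on chromosome 11 from 86383431 to 86443359. Its sites held 11, 7, 98, 63, 2, 5, 14, 2, 6, 4, 11 and 4 footprints, and without the site with 98 the ratio was 2.49. The third was the chromosome 11 cluster of 44 sites, at 2.67, which stayed at 2.63 without its busiest site.

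Other cluster sites with many footprints were likewise wide. The site on chromosome 11 from 86390399 to 86396657 held 98 footprints in 6259 bp. A site on chromosome 7 from 38972545 to 38983701 held 97 in 11157 bp, 45.1% of its cluster. A site on chromosome 8 from 72061769 to 72068222 held 75 in 6454 bp, 64.1% of its cluster. Next came 4 sites with 65 each. They lay on chromosome 8 from 19894546 to 19899302, on chromosome 6 from 31029474 to 31033623, on chromosome 17 from 34255746 to 34260094 and on chromosome 1 from 87479218 to 87484593. Their own clusters held 231, 220, 108 and 301 footprints in that order.

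The clusters with the most sites were not those with the most footprints. The 77 sites of the chromosome 6 cluster held 208 footprints, 0.529 times the prediction, and 66 of them were footprinted, most with 1 to 3. On chromosome 17, 66 sites from 13200220 to 13340816 held 144 (ratio 0.377), 54 sites from 7525421 to 7624751 held 152 (0.447) and 54 sites from 13543176 to 13637631 held 91 (0.339). These 4 clusters had median gaps of 414, 296, 243 and 267 bp. The chromosome 2 cluster of 72 sites, with a median gap of 752 bp and 2.30 times the predicted footprints, was the exception among the 5 with the most sites.

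The longest clusters were just as mixed, the second longest being the chromosome 2 cluster of 72 sites at 157.8 kb and the fourth the chromosome 6 cluster of 77. The 202.7 kb cluster on chromosome 6 held 45 footprints in 49 sites, no more than 5 in any. In contrast, 24 sites on the same chromosome from 91459202 to 91616424, spread over 157.2 kb with a median gap of 5671 bp, held 194 footprints, and 22 of them were footprinted. A 140.7 kb cluster on chromosome 3 from 94434033 to 94574683 held 54 footprints in 44 sites. Relative to width, these 3 held 0.713, 1.90 and 0.407 times the predicted number.

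Each of the 19 autosomes and chromosome X held clusters, from 13 to 87 of them, and chromosome Y held none. Chromosome 6 had 87 clusters holding 12.4% of its sites, and chromosome 17 had 40 holding 13.4%, against a median of 7.07% over the 20 chromosomes. The lowest share was 3.89%, on chromosome 16. Chromosome X had 19 clusters, whose sites were footprinted in 43.8% of cases and held 0.471 times the predicted footprints, against 27.9% and 0.640 for its sites outside clusters. Clusters on chromosome 19 and chromosome 11 had the highest ratios, 1.54 and 1.40, against 1.22 and 1.11 outside. The chromosome 19 value includes the site with 259 footprints. The chromosome 11 value includes the cluster of 44 sites, which held 886 footprints where 332 were predicted.

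Footprints themselves looked alike inside and outside clusters. Their median width was 21 bp in both, and 12.5% in clusters were at the list's largest width of 30 bp, against 11.5% outside. The median finite score, the authors' own value per footprint in which a more negative one was read as stronger, was -4.36 in clusters and -4.38 outside. In clusters with a median gap under 1000 bp footprints were wider, with a median of 23 bp and 16.3% at 30 bp, against 21 bp and 11.4% in the wider spaced clusters.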

How the data were processed

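DNase I cutting was measured in 3T3-L1 cells at 4 h. Per the labels, reads of 2 runs were pooled with an earlier run of the same library before sites were called. The submitters' processing notes name the mm9 build and HOMER. The DHS list was deposited as positions alone. Footprint caller: not given in the sources used here. As for footprints, the deposited list gives positions and the authors' score per footprint, headed p-value in the file. All scores are negative, some are -Inf, and their scale is not given. Per the list's name, footprints passed a false discovery rate of 0.01 and were at most 30 bp wide.

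Positions are given 1-based. A footprint belonged to a site it overlapped by 1 bp or more, and 0 of 329076 fell outside all sites. Numbers per site were checked with bedtools 2.31.1 (0 sites differed). Expected shares and numbers were means in 50 classes of site width, equal in number, over all sites. Python 3.11.15, numpy 2.4.6, pandas 2.3.3, scipy 1.17.1 and matplotlib 3.10.9 were used, and the calculations were tested on simulated data. With 1 library and no replicates there was no test between samples. Wilson and Poisson intervals are at 95% and cover counting error only. Wilson intervals treat sites as independent, and Poisson intervals treat single footprints as independent. Read depth is unknown.

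Clusters named are the 5 with the most sites, the 5 longest, the 5 with the most footprints, the 3 with the highest and the 3 with the lowest ratio to the width prediction (ties at 0 ordered by the predicted number), and the 3 most and 3 least even among those with 50 or more footprints. The 5 sites with the most footprints are named, with ties. Clusters named for recurring runs or for -Inf scores were chosen after values were seen. The clusters, lists and limits were chosen with earlier results of these data known. RNA samples were not analysed here.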

Additional observations from a re-analysis of the deposited data

Results flagged for a closer look

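Footprints with an infinitely low score were a signal outside the main measurements, which used the scores only to choose the stronger 50% of footprints in an alternative. In the clusters, 181 footprints had a score of -Inf (0.572% of 31664), against 315 of 297412 outside (0.106%). The clusters thus held 36.5% of the 496 such footprints with 9.62% of all footprints. They lay in 93 of the 680 clusters. Clusters with a median gap under 1000 bp held 115 of the 181, or 1.56% of their footprints, against 0.272% in wider spaced clusters. The clusters with the highest numbers were the one of 66 sites on chromosome 17 from 13200220 to 13340816 with 13, a cluster on chromosome 8 from 19963090 to 20037592 with 9, and the cluster of 77 sites on chromosome 6 with 7. These 3 clusters were chosen after their values were seen. What gives a score of -Inf was not tested.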

How the results depend on the processing

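Of 77 values recomputed under other settings, 42 stayed within their limits, 29 moved and 6 reversed, all 6 being the ratio of footprints to the width prediction, which passed from below to above 1 in 6 of 17 settings. The main values were 680 clusters, a median length of 51.0 kb, 59.5% of sites with a footprint, a ratio of 0.975, a median Gini coefficient of 0.59 and a central minus edge difference of -2.06 points. In the same order as far as they moved, joining at 5000 bp gave 170 clusters, 23.0 kb, 58.2%, 0.712 and 0.61. Joining at 20000 bp gave 1774 clusters, 78.8 kb, 57.6%, 1.06 and 0.57. A minimum of 5 sites gave 5405 clusters, 27.3 kb, 53.7%, 1.02 and 0.57, and one of 20 sites gave 86 clusters, 74.1 kb, a ratio of 0.795 and a Gini coefficient of 0.62. Keeping the wider 50% of sites gave 167 clusters, 85.7%, 0.991 and 0.45, and keeping the stronger 50% of footprints gave 37.5%, 0.933 and 0.74. The ratio was 1.02 with the chromosome 10 clusters kept and 0.989 with 20 width classes. The Gini coefficient over footprinted sites alone was 0.35. Settings added after the data were seen gave ratios of 0.961 with 500 width classes, 1.06 without clusters holding a score of -Inf, and 1.07, with a Gini coefficient of 0.58, without clusters of median gap under 1000 bp. Without clusters with a recurring run the share was 60.7% and the ratio 1.01. The packed clusters and those with a recurring run had ratios of 0.752 and 0.324, so leaving either out had to raise the ratio. No setting left out clusters for a high ratio. The cause of these moves was not tested. The central share was above the edge share in 3 of 17 settings, by 0.986 points joining at 5000 bp, 0.392 joining at 20000 bp and 1.03 with a minimum of 5 sites. Weighting clusters equally gave -2.90 points. No paired analysis was possible because the 2 runs were pooled before sites and footprints were called. With no read depth given, a site without a called footprint is not shown to be unbound.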
